A study of Mus musculus with 3 samples.

Results

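The small RNAs described here are the reads of 24 to 32 nt from an immunoprecipitate of MIWI2 (PIWIL4) made in MEL cells, set interval by interval against the reads of 24 to 32 nt of adult testis. An interval is a distinct pair of start and end on a chromosome, and its length is end minus start. The members were chosen by library and length alone. They numbered 60748 of the 586929 intervals of the study's 3 libraries, counted in each library and summed, and 60748 of the 181894 in the MEL library. They held 287397 reads, 34.9% of the 823452 MEL reads. The testis library held 268601 intervals of that length with 1071061 reads, 93.6% of its 1143785 reads.

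MEL is a cultured mouse erythroblast line transformed by Friend virus. From its lysate MIWI2 was pulled down with a rabbit polyclonal antibody. The testis RNA came from C57Bl6/J mice of 10 weeks and from no immunoprecipitate: total RNA was size-selected by excising the gel region around 29 nt. That selection therefore helped to set the testis lengths. The remaining library, used below only as a comparison, was a MIWI2 immunoprecipitate from unfractionated splenocytes of C57Bl6/J mice of 10 weeks, with 65363 reads of 24 to 32 nt on 8852 intervals. Each group had 1 library, so no difference has a replicate check and no p-value is given. Intervals in parentheses are exact Clopper-Pearson 95% intervals, which cover counting error only. No control immunoprecipitate enters the comparisons. The files list positions without strand, sequence or gene, and their build is not GRCm38, so no gene marker of either cell type could be read, no gene is named and no sequence is printed. Positions follow the files and are 1-based.

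PIWI-interacting RNAs (piRNAs) are small RNAs held by PIWI proteins and best known from the germ line, where they act against transposons. In adult mouse testis most come from long precursor transcripts of a limited set of genomic clusters. Their 5′ end is set by cleavage of the precursor, and the 3′ end is then trimmed back by an exonuclease to a length that depends on the PIWI protein that holds it. A piRNA cut from 1 precursor position can thus appear in several lengths that share the 5′ end. MIWI2 itself is known from fetal male germ cells, whereas MILI and MIWI hold the piRNAs of adult testis.

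The first comparison asked how many MEL intervals have an exact or partial counterpart in testis. Of the 60748 MEL intervals, 14865 (24.5%, 24.1 to 24.8) were also testis intervals with both ends the same. A further 4206 (6.92%, 6.72 to 7.13) had a left end and a right end that testis also had, but on different testis intervals. Those that shared the left end alone numbered 4706 (7.75%, 7.54 to 7.96), and those that shared the right end alone 4375 (7.2%, 7.0 to 7.41). The remaining 32596 (53.7%, 53.3 to 54.1) shared neither end. Over MEL intervals of every length against testis intervals of every length the same 5 shares were 9.93%, 3.49%, 4.55%, 4.35% and 77.7%. MEL intervals of 24 to 32 nt thus lay on testis ends more often than MEL intervals at large. Of the testis reads 93.6% had these lengths after gel selection around 29 nt, so this order follows at least in part from the testis lengths. The set of every length also contains the members themselves. Counted by reads in place of intervals, 44.2% of the reads lay on the same interval as a testis read and 30.1% on an interval with neither end in testis.

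These shares split by region. Testis clusters were taken as runs of 10 kb windows with at least 100 RPM (reads per 1000000 reads of the library) in testis and at least 20 distinct left ends, which gave 128 clusters. They held 28990 of the MEL intervals (47.7%) but 51372 of the reads (17.9%). Inside the clusters 48.7% (48.1 to 49.2) of the MEL intervals were testis intervals, 13.9% had both ends on different testis intervals, 11.9% shared the left end alone and 11.3% the right end alone. Only 14.2% (13.8 to 14.6) shared neither end. Outside the clusters 2.39% (2.23 to 2.57) were testis intervals and 89.6% (89.3 to 89.98) shared neither end. The clusters were defined on testis reads, where testis ends lie densely, so more sharing inside them follows in part from how they were chosen.

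Within the clusters the share of exact counterparts was higher for longer MEL reads. It was 31.9% (30.3 to 33.5) at 24 nt, 30.1% (28.7 to 31.4) at 25 nt, 35.2% (33.9 to 36.4) at 26 nt, 42.9% (41.6 to 44.3) at 27 nt and 58.4% (56.8 to 60.02) at 28 nt. At 29, 30 and 31 nt it was 76.9% (75.5 to 78.3), 82.6% (81.0 to 84.1) and 82.8% (80.1 to 85.3), and at 32 nt, with 142 intervals, 69.7% (61.5 to 77.1). Matches at 1 end alone went the other way, from 31% (29.4 to 32.6) at 24 nt to 7.07% (6.07 to 8.18) at 30 nt. At 32 nt they were 21 of the 142 intervals, a higher share than at 30 nt. Short MEL reads in clusters were therefore found in testis less often as such, and more often by 1 end alone. The number of testis reads of each length moved with this. Testis had 18640 reads of 24 nt and 338525 of 30 nt in the clusters, so a testis interval of 24 nt was less likely to have been sampled, and the part of this in the result was not tested.

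**Figure D1:**
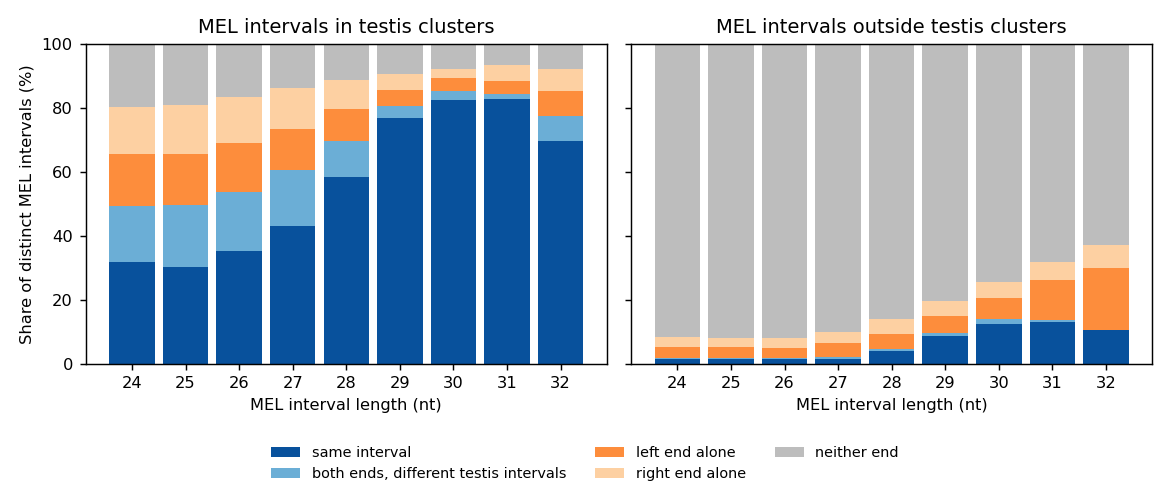
Share of distinct MEL intervals (vertical axis, %) in each of 5 classes against testis, by length of the MEL interval (horizontal axis, nt), in the 128 testis clusters (left) and outside them (right). In the clusters the same-interval share goes from 31.9% at 24 nt to 82.6% at 30 nt, and outside them neither end is shared by most intervals at every length.

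The 2 libraries had their reads in the clusters at different lengths. MEL had 5795, 8921, 11095, 9395 and 5919 reads of 24, 25, 26, 27 and 28 nt there, and 5436, 3487, 1151 and 173 reads of 29, 30, 31 and 32 nt. Testis had 228105, 338525 and 202203 reads of 29, 30 and 31 nt. For every 100 testis reads in the clusters, MEL had 31.1 at 24 nt, 36.4 at 25 nt, 33.9 at 26 nt, 20.02 at 27 nt, 8.02 at 28 nt, 2.38 at 29 nt, 1.03 at 30 nt, 0.569 at 31 nt and 0.387 at 32 nt. The ratio fell at each length from 25 nt on, by the largest factor between 28 and 29 nt.

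Up to 99 reads per interval, deeper MEL intervals in the clusters had exact counterparts more often. Of the 20418 MEL intervals with a single read, 43.7% (43.0 to 44.3) were testis intervals. The share was 57.3% (56.1 to 58.4) of those with 2 to 4 reads, 79.0% (76.1 to 81.7) of those with 5 to 9 reads and 85.3% (81.1 to 88.8) of those with 10 to 99 reads. Of the 8 intervals with 100 reads or more, 6 were testis intervals (75%, 34.9 to 96.8). Neither end was shared by 16.7% (16.2 to 17.2) of the single-read intervals, against 2.38% (1.46 to 3.64) of those with 5 to 9 reads. At 10 to 99 reads it was 5.10% (3.05 to 7.94). Among the 14105 exact counterparts in the clusters, MEL and testis reads per interval had a Spearman correlation of 0.19 and a Pearson correlation of 0.26 on the log2 scale. By length, the Spearman correlation was 0.27 over 6594 intervals of 24 to 27 nt and 0.40 over 5342 intervals of 29 to 32 nt. These correlations are across intervals of the same 2 libraries, which are not independent replicates.

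The second question was how the lengths compare when a single end agrees. The offset was the MEL length minus the length of the most-read testis interval at the shared end. In the clusters 5895 of the 6729 MEL intervals with 1 end alone in testis were shorter than that testis interval (87.6%, 86.8 to 88.4). The most frequent offsets were -3 nt (1284 intervals), -4 nt (1219) and -2 nt (1085), while 391 intervals were longer by 1 nt. The median was -3 nt, with quartiles of -4 and -1, for left-end and for right-end matches. The shorter share was 87.3% (86.1 to 88.3) on the left and 88.0% (86.8 to 89.1) on the right.

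The direction of these offsets was close to what the testis lengths alone give. At 24 nt every MEL partner must be longer, and at 32 nt every partner must be shorter. For each MEL length, the testis partners in the clusters with any other length were therefore taken. The share of them that were longer was computed and weighted by the MEL lengths. It came to 86.8% for left ends and 86.8% for right ends, against the 87.3% and 88.0% seen. At 28 nt, where the length range allows 4 nt either way, 305 of 369 left-end matches were shorter than their testis partner (82.7%). Of the testis partners with a length other than 28 nt, 77.8% were longer. For right ends at 28 nt, 269 of 331 matches were shorter (81.3%), beside 77.7% of such testis partners that were longer. The sign of the offset thus went little beyond the difference in length between the 2 libraries, and by itself it did not show which end the reads keep.

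Which end was shared differed from region to region. In 10 kb windows with at least 20 MEL intervals matched at 1 end alone, the left share of these matches was counted. Of 124 such windows, 29 (23.4%) had 75% or more of the matches on the left, 31 (25% of all) had 75% or more on the right, and 64 lay between. The windows can be sorted without MEL reads, by the testis intervals alone. Where reads share a set end and vary at the other, the set end has fewer distinct positions. Windows with at least 20 testis intervals were therefore assigned by the log2 ratio of distinct left to distinct right testis ends, at -0.3 or lower or 0.3 or higher. The side with fewer positions is called the constant end here. Without strand in the files, it cannot be read as 5′ or 3′.

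MEL shared the constant end of testis in nearly every assigned window. In the 54 windows where testis had fewer left ends, the left share of MEL matches had a median of 75.7% and was over 50% in 53. In the 50 windows where testis had fewer right ends, the left share had a median of 22.9% and was under 50% in 49. The majority end in MEL was thus the constant testis end in 102 of 104 windows. The 2 exceptions were the windows on chromosome 1 from 173000001 to 173010000 and from 173030001 to 173040000, named after their values were seen. These had 26 and 11 distinct left ends in testis, far fewer than the windows described next. The other 20 windows were not assigned, 16 of them because testis had too few intervals there, and 15 of these 16 had no side with 75% of the matches. Over the 124 windows the left share and the testis log2 ratio had a Spearman correlation of -0.73 and a Pearson correlation of -0.76. The MEL library alone gave the same order: its own log2 ratio of distinct left to distinct right ends had a Spearman correlation of 0.86 with that of testis.

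**Figure D2:**
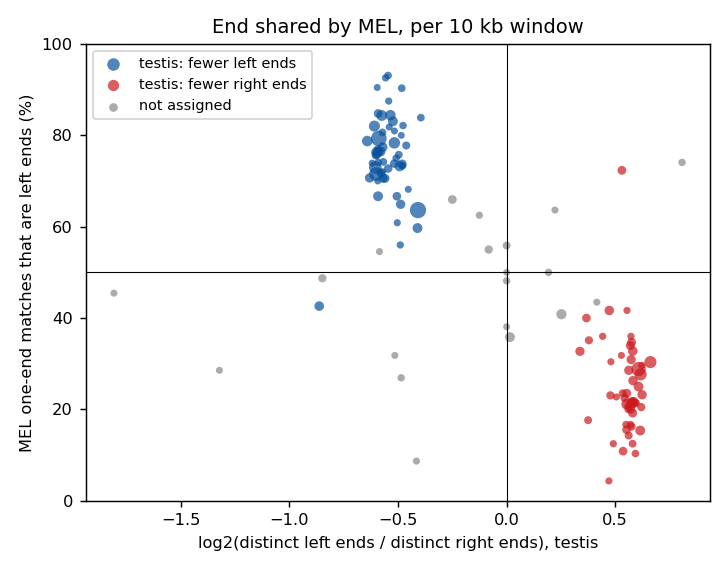
Left share of the MEL matches at 1 end alone (vertical axis, %) against the log2 ratio of distinct left to distinct right ends in testis (horizontal axis), 1 point per 10 kb window with at least 20 such matches (124 windows), with larger points for more matches. Assigned windows fall into 2 groups: 54 with fewer left ends in testis, 53 of them over 50%, and 50 with fewer right ends, 49 of them under 50%.

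Named windows show the counts behind this. On chromosome 17 from 27470001 to 27480000, testis had 880 distinct left ends and 1323 distinct right ends. There MEL had 161 intervals matched on the left alone and 42 on the right alone. On chromosome 14 from 24900001 to 24910000 the testis ends numbered 1010 and 1540, and the MEL matches 73 and 16. The opposite held on chromosome 9 from 67560001 to 67570000, with 1420 left and 968 right ends in testis and 18 left and 67 right matches in MEL. On chromosome 5 from 150620001 to 150630000 testis had 1683 and 1099 ends, and MEL 10 left and 55 right matches. The chromosome 17 cluster, from 27420001 to 27510000, changed side within itself. From 27430001 to 27440000 MEL had 20 left and 73 right matches, and from 27450001 to 27460000 it had 47 and 116, with more left than right ends in testis in both. From 27460001 to 27470000 MEL had 140 left and 80 right matches, and from 27480001 to 27490000 it had 108 and 43, with fewer left than right ends in testis in both.

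All assigned cluster windows were then put in 1 frame, with the constant end first. Of the 292 windows in clusters, 120 had a constant left end and 133 a constant right end. They held 27559 MEL intervals (95.1% of those in clusters) and 210770 testis intervals (94.7%). Testis had 109008 distinct constant ends and 157630 distinct other ends, so a constant end carried 1.93 lengths on average and an other end 1.34. MEL had 19390 and 25011, with 1.42 and 1.10 lengths.

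In this frame 80.3% (79.9 to 80.8) of the MEL intervals had their constant end in testis, and 68.7% (68.2 to 69.3) their other end. The constant end alone was shared by 4799 intervals (17.4%, 17.0 to 17.9) and the other end alone by 1604 (5.82%, 5.55 to 6.10). Testis had fewer constant ends than other ends to be matched, but the same testis reads lay on both. Each constant end thus held more testis reads on average, and the part of this in the order was not tested. A MEL end with several lengths is counted once per length here. By distinct MEL end, 73.8% of constant ends and 66.7% of other ends were in testis. At 24 to 27 nt the constant end was in testis for 76.5% (75.8 to 77.1) of the MEL intervals and the other end for 61.3% (60.6 to 62.0). At 29 to 32 nt these were 89.2% (88.4 to 89.9) and 85.6% (84.7 to 86.4), so the gap between the ends was widest in the short reads. At 24 nt alone they were 73.1% (71.5 to 74.7) and 57.0% (55.2 to 58.8).

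The distance between MEL and testis ends gave the shape of the difference. For each distinct MEL end, every position up to 40 nt to either side was checked for a testis end of the same side. Positive distances run from the constant end toward the other end. For MEL reads of 24 to 27 nt, 71.6% of the 13751 distinct constant ends had a testis end at distance 0, against 27.8% at -1 nt and 30.1% at 1 nt. At 10 to 40 nt away the median was 10.8%. The constant end thus had a single sharp maximum at the same base. The other end of these reads had no such maximum. Testis ends were found at 60.1% of the 16559 MEL ends at distance 0, and at 57.7%, 58.6%, 60.0%, 58.2% and 51.1% at 1, 2, 3, 4 and 5 nt further out. On the inner side the share fell to 50.1% at -1 nt and 42.5% at -2 nt, and it was 34.0% at 7 nt. Next to the other end of the short MEL reads, testis ends thus lay about as often 1 to 4 nt further out as at the same base.

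MEL reads of 29 to 32 nt lacked this plateau. Their other end had a testis end at distance 0 for 85.2% of 6211 ends, at 1 nt for 76.0%, at 2 nt for 60.4% and at 3 nt for 47.4%, with 75.9% at -1 nt and 67.9% at -2 nt. At -3 nt it was 60.2%, so beyond 1 nt the shares were higher on the inner side than on the outer side. The constant end was shared by 87.8% of 5624 ends. In the splenocyte immunoprecipitate the other end had 89.7% at 0, 79.4% at 1 nt and 54.1% at 3 nt, as in the long MEL reads.

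**Figure D3:**
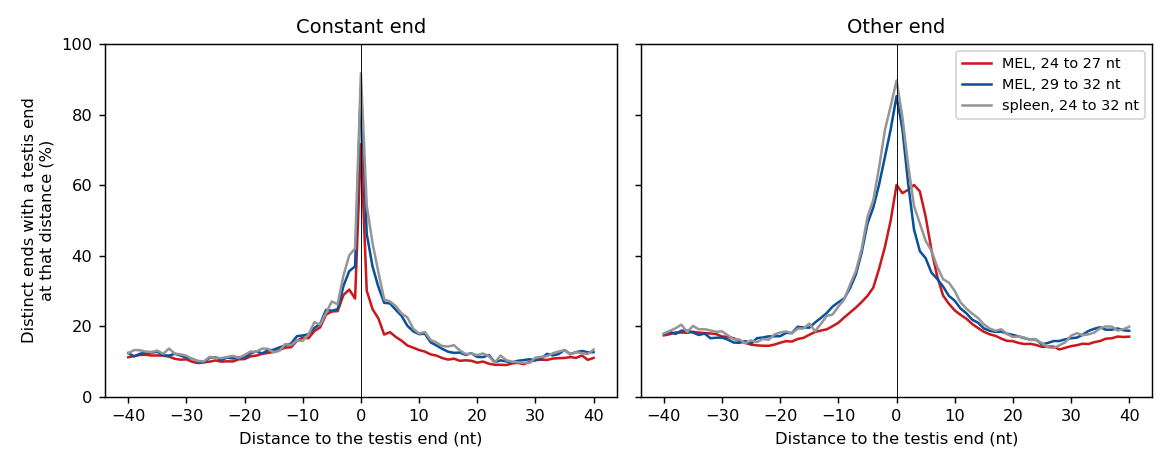
Share of distinct ends that have a testis end of the same side at a given distance (vertical axis, %; horizontal axis, nt, positive from the constant toward the other end), for MEL reads of 24 to 27 nt and of 29 to 32 nt and for splenocyte reads. At the constant end all 3 lines have 1 peak at 0, while at the other end the short MEL reads stay between 57.7% and 60.1% from 0 to 4 nt. All reads were limited to 24 to 32 nt, which leaves short reads more room on the outer side and long reads more on the inner side.

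Against the most-read testis length at the same constant end, most MEL intervals were shorter. Of the 22138 MEL intervals with their constant end in testis, 68.2% (67.5 to 68.8) were shorter than that length, 20.7% (20.1 to 21.2) had it and 11.2% (10.8 to 11.6) were longer. Testis set against itself gave 24.4% shorter, 51.7% equal and 23.8% longer over its 210770 intervals, where an interval can be its own most-read form. Among the 101763 testis intervals that were not the most-read form, shorter and longer ones were about even, at 50.6% (50.3 to 50.9) and 49.4%. At 24 to 27 nt, 84.2% (83.6 to 84.9) of the MEL intervals were shorter than the main testis form and 9.75% (9.26 to 10.3) were that form. For testis intervals of the same lengths this was 50.9% and 42.5%, but there too an interval can be its own most-read form. That raises the equal share in testis alone, so these shares are not directly comparable with those of MEL. Longer than the main form were 6.0% of these MEL intervals and 6.52% of these testis intervals. Of the 6308 short MEL intervals that were also testis intervals, 73.4% (72.3 to 74.5) were a minor testis form with a longer main form at the same constant end. The 1604 MEL intervals matched at the other end alone were shorter than their partner about as often (86.8%, 85.1 to 88.5) as the 4799 matched at the constant end alone (87.8%, 86.8 to 88.7).

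Ends with many reads allow the 2 length distributions to be compared directly. Of 480 left ends with at least 10 reads of 24 to 32 nt in each library, the mean length was lower in MEL at 438, and of 455 right ends at 412. Over reads of every length the shares of such ends with a lower MEL mean were 88.5% and 87.9%. By role, MEL was shorter at 546 of 559 constant ends, by a median of 1.83 nt (-1.83 as MEL minus testis, quartiles -2.63 and -1.13). The most frequent MEL length was shorter than that of testis at 425 of the 559, the same at 123 and longer at 11. At the 258 other ends the MEL mean was lower at 201, with a median difference of -0.28 nt (quartiles -1.68 and -0.0091), and the most frequent length was the same at 182 and shorter at 75. At these other ends 1 length held a median of 93.8% of reads in MEL and 91.4% in testis, against 43.8% and 45.9% at the constant ends. The lengths at an other end therefore varied little within either library.

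**Figure D4:**
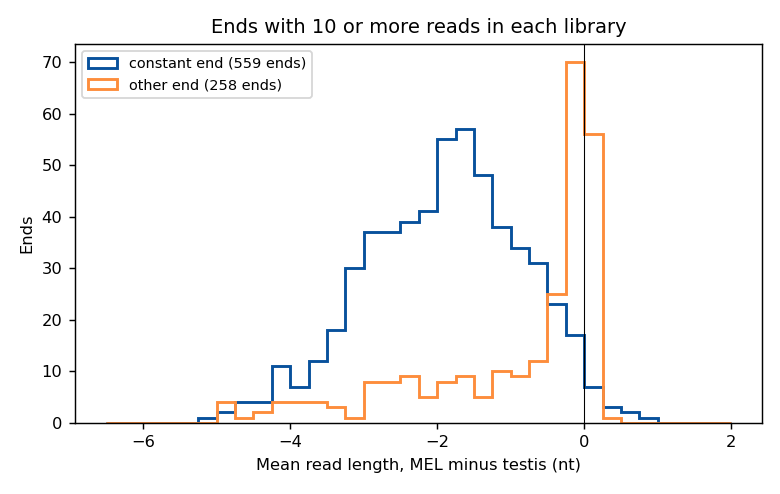
Number of ends (vertical axis) by mean read length in MEL minus that in testis (horizontal axis, nt), for ends in assigned cluster windows with at least 10 reads of 24 to 32 nt in each library. The 559 constant ends centre on a median of -1.83 nt, while the 258 other ends have their highest bars beside 0 and a tail of negative values.

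The MEL length at a constant end varied with the testis length there, but less than it. At the 57 constant ends where testis reads were most often 24 to 26 nt, the median of the mean lengths was 26.3 nt in testis and 25.5 nt in MEL. At the 83 ends with 27 or 28 nt it was 27.97 nt and 26.4 nt, at the 355 ends with 29 or 30 nt it was 29.1 nt and 26.8 nt, and at the 64 ends with 31 or 32 nt it was 30.1 nt and 27.2 nt. The median difference went from -0.77 to -1.49, -1.99 and -2.71 nt. The ends were grouped by the testis length, which also enters the difference. The wider gap and the narrower MEL range therefore follow at least in part from the grouping. Across the 559 ends the mean lengths had a Spearman correlation of 0.56 and a Pearson correlation of 0.59, a description of ends that share 2 libraries. The upper limit of 32 nt and lower limit of 24 nt bound both means. They left MEL little room to be shorter in the first group and little to be longer in the last.

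Single ends showed both patterns. The shared end with the highest level in the less abundant of the 2 libraries was the right end at 67557388 on chromosome 9, where the right end is the constant one. Testis had 33, 84, 146, 3183 and 1546 reads of 26, 27, 28, 29 and 30 nt there. MEL had 98, 40, 63, 64 and 27 reads of these lengths. In testis 63.2% of the 5034 reads were 29 nt long, whereas in MEL the most frequent length was 26 nt, with 32.6% of 301 reads. MEL stood at 366 RPM (exact Poisson 95% interval 325 to 409) and testis at 4401 RPM (4280 to 4524).

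At the left end 127767767 on chromosome 6, testis had 24, 36, 32, 55, 208, 208 and 608 reads of 24, 25, 26, 27, 28, 29 and 30 nt. MEL had 28, 22, 48, 23, 15, 5 and 17. The mean length there was 29.0 nt in testis and 26.4 nt in MEL, a difference of -2.55 nt. Further along the same cluster, at the left end 127750690, the most frequent length was 30 nt in testis (1449 of 3627 reads) and 26 nt in MEL (34 of 110). Both libraries had a dip at 27 nt at that end, with 72 testis reads and 2 MEL reads. At the left end 27493440 on chromosome 17, testis had 66 of 159 reads at 29 nt, whereas MEL had 37, 33 and 34 of 113 reads at 24, 26 and 27 nt and 2 at 29 nt.

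Some constant ends had the same most frequent length in both libraries. At the left end 127779644 on chromosome 6, 2070 of 2382 testis reads and 108 of 137 MEL reads were 27 nt long, and the means differed by -0.17 nt. At the left end 27473824 on chromosome 17, 735 of 1367 testis reads and 165 of 257 MEL reads were 25 nt long. There testis had a second group at 28 to 30 nt, with 65, 145 and 64 reads, where MEL had 9, 1 and 2. At these 2 ends, where the main testis form was short, the main MEL form was thus the same, and the longer testis group of the latter was rare in MEL. At the left end 27485320 on chromosome 17 the most frequent length was 24 nt in testis and 25 nt in MEL, so it was longer in MEL. At the right end 54085814 on chromosome 9 it was 28 nt in both, and at the right end 83184788 on chromosome 15 it was 25 nt in both. Over the 57 constant ends with a main testis form of 24 to 26 nt, the most frequent length was the same in both at 35 and shorter in MEL at 13.

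**Figure D5:**
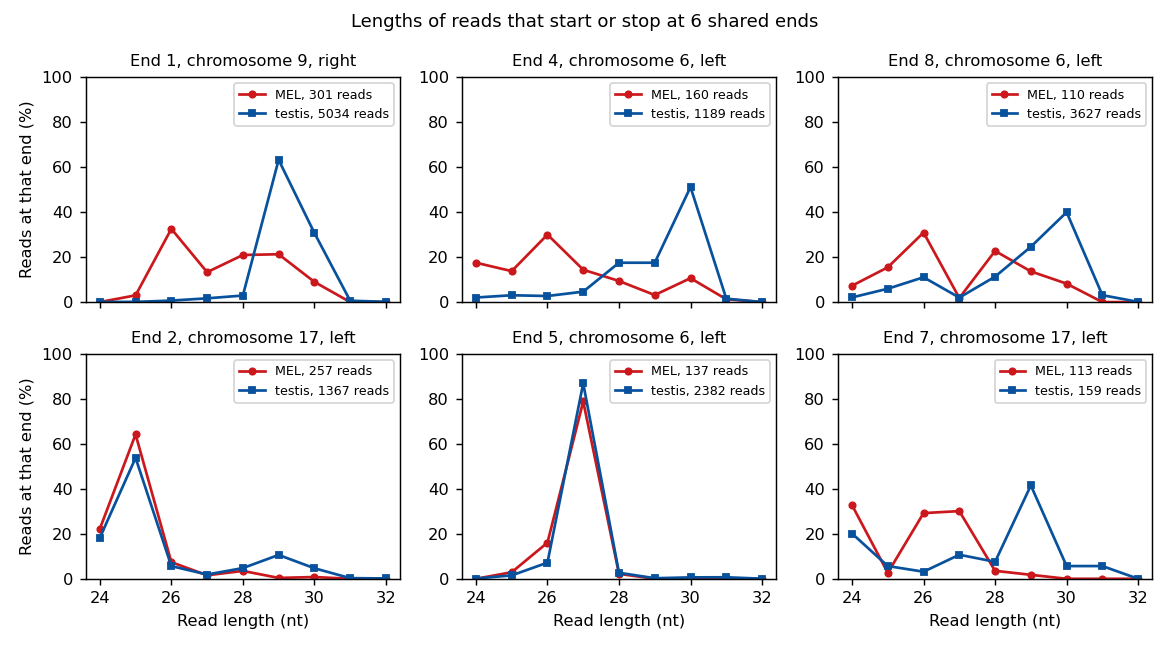
Share of the reads at an end (vertical axis, %) by read length (horizontal axis, nt) in MEL and testis. Shown are 6 of the 10 shared ends in clusters with the highest level in the less abundant library. In the top row testis peaks at 29 or 30 nt and MEL at 26 nt. In the bottom row ends 2 and 5 peak at 25 and 27 nt in both libraries, and end 7 differs again.

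The same measures were taken in single clusters. In 46 clusters with at least 100 MEL intervals of 24 to 32 nt, the mean length was lower in MEL in all 46, by a median of 2.48 nt (MEL minus testis -2.48, range -3.99 to -2.0). The same-interval share ranged from 11.4% to 65.3%, with a median of 49.5%. The constant end was shared more often than the other end in 45 of the 46, with medians of 82.1% and 70.1%. In the chromosome 17 cluster they were 75.8% and 64.0%, in the chromosome 2 cluster from 92380001 to 92450000 they were 83.1% and 68.7%, and in the chromosome 9 cluster from 67540001 to 67610000 they were 82.0% and 71.5%. The exception was chromosome 1 from 172990001 to 173010000, with 22.7% and 34.7%, the lowest same-interval share (11.4%, 8.06 to 15.6) and 2654 MEL reads against 1449 testis reads. The same-interval share was higher in clusters with more testis reads (Spearman correlation 0.50 over 46 clusters), so testis depth moved with it.

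For cluster intervals in MEL that shared neither end, the distance to the nearest testis constant end was taken. Of 3817 such intervals in assigned windows, 14.9% (13.8 to 16.0) had a testis constant end within 1 nt, 25.96% (24.6 to 27.4) within 2 nt and 67.0% (65.5 to 68.5) within 10 nt. About 11.0% of positions 10 to 40 nt from MEL constant ends held a testis constant end. That value comes from all MEL constant ends, including those shared with testis, so it is no matched reference for these intervals. Whether they gather near testis ends was not tested.

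The splenocyte immunoprecipitate lay on testis intervals more often than MEL in the clusters. It had 2211 intervals of 24 to 32 nt there, of which 83.4% (81.8 to 84.9) were testis intervals, against 48.7% in MEL. At 24 to 27 nt the same-interval share was 66.7% (61.3 to 71.7) of 333 splenocyte intervals and 35.5% (34.8 to 36.2) of 18560 MEL intervals. At 29 to 32 nt it was 87.9% (86.2 to 89.4) and 79.5% (78.5 to 80.5). Of 1930 splenocyte intervals with their constant end in testis, 28.3% (26.3 to 30.4) were shorter than the main testis form and 24.4% (22.5 to 26.4) longer, beside 24.4% and 23.8% in testis itself and 68.2% and 11.2% in MEL. Splenocytes had 10063 reads on 2211 cluster intervals and MEL 51372 on 28990, so the splenocyte intervals held more reads each, and in MEL the same-interval share was higher where an interval held more reads. Lengths differed too. In the assigned windows 1617 of 2087 splenocyte intervals were 29 to 32 nt long, whereas 17637 of 27559 MEL intervals were 24 to 27 nt. The shorter and longer shares above are therefore not matched for length. At 24 to 27 nt the constant end was in testis for 86.9% of 306 splenocyte intervals and the other end for 78.1%. In MEL these were 76.5% and 61.3%. With 1 library each, these differences were not tested.

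Outside the clusters most MEL reads lay on few intervals that testis hardly had. There 31758 MEL intervals held 236025 reads, 82.1% of the members' reads, and 303 intervals with 100 reads or more held 70.4% of these. Of the 303, 90 were testis intervals, 84 shared the left end alone, 51 the right end alone and 74 neither end. The 90 held 90471 MEL reads but 258 testis reads, with 1 testis read on 42 of them and 10 or more on 4. The share of MEL reads on testis intervals (40.9% outside the clusters) thus lay mostly on these 90 deep MEL intervals, which had a median of 2 testis reads each, and by interval it was 2.39%. Among the 1-end matches outside the clusters 79.0% (77.3 to 80.6) of the intervals and 68.3% of the reads were shorter than the testis partner.

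Of the 10 shared ends over the whole genome with the highest level in the less abundant library, 3 lay outside the clusters, all left ends. They were 96962008 on chromosome 3, 173033174 on chromosome 1 and 30530946 on chromosome 10. MEL had 146, 137 and 137 reads there and testis 1710, 1725 and 1656. Their mean lengths were 29.98, 29.8 and 29.9 nt in MEL and 29.9, 29.8 and 29.8 nt in testis, so MEL was not shorter at any of these 3. Over the 73 ends outside the clusters with at least 10 reads in each library, MEL was shorter at 59, with a median difference of -1.32 nt. At each of the 3 named ends the most frequent length was 31 nt in MEL and 30 nt in testis. In splenocytes it was 32 nt, with 132, 119 and 115 reads. MEL had 34, 30 and 35 reads of 32 nt there. That length is the upper limit of the reads taken, so longer reads at these ends are not counted in the lengths given. The counts were near equal at the 3 places. How reads that match several places were treated is not stated, so the 3 need not be separate sources.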

How the data were processed

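The deposited files list 1 mapped read per line as chromosome, start and end, and copies of a read are repeated lines. The values show no normalisation by the authors. Bowtie 0.12.7 is named in the submitters' processing notes. Mapping options, adapter trimming, multiple matches and build are not stated in the labels, and read length depends on the trimming. Reads reach position 152523579 of chromosome 7, past the last annotated base there in GRCm38 (145324086), so no GRCm38 annotation or sequence was joined.

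Lines were collapsed to distinct intervals, and ends and clusters compared as the text states, with Python 3.11.15, numpy 2.4.6, pandas 2.3.3, scipy 1.17.1 and matplotlib 3.10.9. A tie for the most-read testis interval went to the shorter one. The steps were tested on simulated reads with known ends. The named ends come from the 10 shared ends with the highest level in the less abundant library, more than 50 nt apart, over all positions and in clusters. The named windows come from the 5 with most matches on each side. The other windows of the chromosome 17 cluster and the chromosome 1 regions were chosen after their values were seen. The members, clusters and measures were chosen with earlier results of these data known, and the assignment of windows by testis ends was added after seeing the data. Without molecular identifiers, PCR copies cannot be told from separate molecules.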

Additional observations from a re-analysis of the deposited data

Results flagged for a closer look

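MEL reads of 18 to 23 nt, which the comparisons above leave out, also lay on testis ends in the assigned cluster windows. Of 7167 such intervals, 68.2% (67.1 to 69.3) had their constant end among those of testis reads of 24 to 32 nt, and 40.7% (39.5 to 41.8) their other end. By length the constant-end share was 66.2% (61.3 to 70.8) at 18 nt, 60.6% (56.8 to 64.3) at 19 nt, 64.8% (61.5 to 67.9) at 20 nt, 69.0% (66.4 to 71.6) at 21 nt, 69.1% (66.9 to 71.3) at 22 nt and 71.2% (69.2 to 73.0) at 23 nt. The other-end share was 31.6% (27.1 to 36.4) at 18 nt and 43.3% (41.3 to 45.4) at 23 nt.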

How the results depend on the processing

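No paired analysis was possible because each group had 1 library. Of 59 values under another setting, 49 left the counting interval of the stated value (for counts of windows, 1.5 times) and 10 stayed within it. None turned a majority of shorter reads into a minority. In all MEL intervals, the same-interval, 1-end and neither-end shares were 24.5%, 14.9% and 53.7%. They were 44.2%, 22.5% and 30.1% by reads, 29.8%, 14.0% and 50.2% at 26 to 31 nt and 17.9%, 14.5% and 63.0% with at least 2 reads per testis interval. They were 34.8%, 16.6% and 41.3% with at least 2 reads per MEL interval and 16.2%, 16.4% and 62.0% with testis thinned to 287397 reads, the MEL depth. They were 48.7%, 23.2% and 14.2% in clusters and 2.39%, 7.41% and 89.6% outside. With testis reads of every length the 1-end and neither-end shares were 15.3% and 52.8%.

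The share of 1-end matches shorter than testis was 85.4%, and 71.2% by reads, 86.2% at 26 to 31 nt, 77.9% with testis reads of every length, 90.2% and 83.5% with 2 reads per testis or MEL interval, 87.6% in clusters, 79.0% outside and 87.1% against the mean testis length. The windows with 75% of the matches on the left and right, 29 and 31, became 4 and 2 at 90%, 12 and 9 with at least 50 matches, and 45 and 47 with testis thinned. The constant-end share stayed above the other-end share under each of 6 settings chosen after seeing the data, from 66.5% and 52.6% (2 reads per testis interval) to 88.4% and 77.4% (2 reads per MEL interval). With testis thinned they were 68.0% and 51.6%, so testis depth limits these shares.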
